A study of Caenorhabditis elegans with 48 samples.

Results

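The change over the sampling day was examined in *C. elegans* treated with the auxin analog K-NAA, across all genes: the 8 K-NAA libraries of the late day (circadian time CT17, CT19, CT21 and CT23) were set against the 8 K-NAA libraries of the early day (CT1, CT3, CT5 and CT7). They were chosen by label alone and are 16 of the 48 RNA-seq libraries of the series, which holds 24 K-NAA and 24 mock libraries from 12 time points with 2 culture plates each. K-NAA late day and K-NAA early day worms were both JDW259 hermaphrodite adults, whole bodies, moved to plates with 0.4 mM K-NAA (the dose in the sample labels, which the study's methods give with a far higher value, so that the dose is uncertain) 84 h after release from L1 arrest, which was 12 h before sampling began. Mock late day and mock early day worms received no K-NAA, and the study's methods do not describe how they were handled at that hour. All groups share the same alleles, a transgene in which the *eft-3* promoter drives TIR1 (the plant auxin receptor, an F-box protein) together with mTagBFP2, and *nhr-23* carrying an AID*::TEV::3xFLAG degron tag. All had also been raised in cycles of 25 °C and 15 °C and then held at 15 °C, and kept on FUdR, an inhibitor of DNA synthesis that blocks offspring. No K-NAA worms without TIR1 or without the tag were analysed here, so effects of the compound and of the loss of NHR-23 cannot be told apart. The late day worms were also 16 h older, with 16 h more of K-NAA and of constant temperature, so time of day cannot be told apart from these.

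NHR-23 is the nematode ROR-type nuclear receptor. In larvae it drives molting genes, among them those for cuticle collagens and for the enzymes that process them, and the auxin system removes it by marking the tagged protein for the proteasome. The cuticle is an extracellular coat made by the hypodermis (the epidermis) and built mainly from many small collagens. Adults no longer molt but continue to transcribe an adult set of collagens, of which *col-19* is the usual marker. In whole worms, the RNA pool is made up largely of germ line and intestine, the tissue that makes yolk, stores fat and detoxifies metals and foreign compounds. In such bulk samples, fewer cells of a type and less RNA per cell cannot be told apart.

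Values are TPM (a gene's share of a library's transcripts on a fixed scale, the same total in every library), which keep no read depth, so a level is a share of the pool and no counting error can be given. The 16 libraries were alike in range: 15239 to 15883 genes were above 0, the 10 most abundant genes took 6.67 to 8.27% of the TPM, and the log2 profile of a library correlated with that of the other plate of its time point at r = 0.979 to 0.989. *nhr-23* mRNA was 28.3 to 34.5 TPM (median 31.7) in late libraries and 29.9 to 33.4 TPM (median 32.4) in early libraries. The degron acts on the protein, so its mRNA cannot show whether the protein was depleted. The adult label was borne out by *col-19*, at 302 to 438 TPM late and 426 to 577 TPM early, and the male and seminal fluid list (9 genes) summed to only 9.94 to 15.8 TPM late and 8.79 to 15.1 TPM early. The library of CT19, replicate 2, stood apart from the other 7 late libraries. Its summed numbered collagens were 12959 TPM, with 9407 to 11159 TPM in the other 7, and its summed body wall muscle markers were 1307 TPM, with 999.9 to 1163 TPM in the other 7. Without it, 64 genes rose and 76 fell, and all 52 genes called with it remained among them.

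Late in the day, 24 of the 13813 genes tested were higher and 28 were lower in K-NAA worms (limma on log2(TPM + 0.5), Benjamini-Hochberg adjusted p under 0.05), which is 0.174% and 0.203% of the genes. At an unadjusted p under 0.05, 6.96% were higher and 4.68% lower, and the median log2 change of all genes was 0.0079, with 52.9% of them above 0. These shares are the background for the counts per list below. Of the 28 genes that fell, 13 were numbered cuticle collagens and 1 was a hedgehog-related gene. The 24 that rose included the metallothionein *mtl-1*, the nuclear receptor *nhr-76*, the desaturase *fat-5* and the ubiquitin system genes *skr-2*, *skr-12* and *ubc-18*. The median log2 change was 0.47 among the genes that rose and -0.44 among the genes that fell. All 52 had the same sign in both replicates, which is likely for genes called on both replicates together. The late and early libraries did not overlap for 13 of the 52 (5 that rose and 8 that fell), and for 0.174% of all genes tested.

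**Figure D1:**
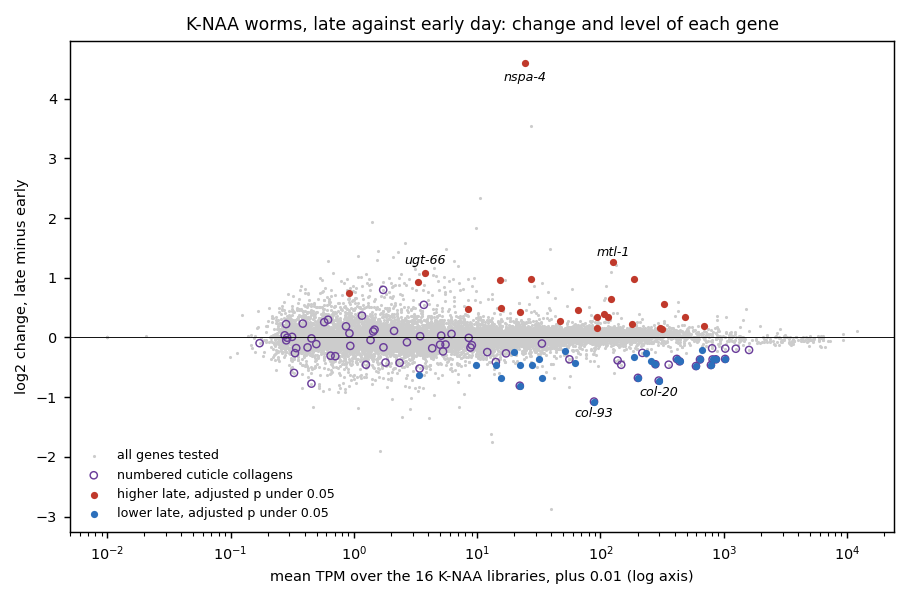
Log2 change between late and early K-NAA libraries (vertical axis, log2(TPM + 0.5) scale) against the mean TPM over the 16 libraries (horizontal log axis), 1 dot per gene tested. Red dots are the 24 genes that rose, blue dots the 28 that fell and open purple circles the 70 numbered collagens tested. The collagens above 100 TPM all lie below 0, and *nspa-4* stands alone far above the rest, at a height set by the added 0.5 TPM since most of its early values are 0.

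How far single calls rest on single samples was examined by leaving out each of the 16 libraries and each of the 8 time points in turn. The direction of all 52 genes was the same in each of the 38 alternatives run for this comparison. The 52 were picked for a small p on these same libraries, so a kept direction is likely and no separate support. The calls of *col-20*, *col-93*, *col-101*, *col-140*, *col-178*, *grd-3*, *mct-3* and *ZK632.10* were kept in all 24 omissions. The other 44 missed the threshold without CT21 (adjusted p = 0.0581 to 0.198 from limma), where 1 gene rose and 8 fell. Without CT3, 5 rose and 8 fell, without CT23 6 rose and 9 fell, and without CT7 11 rose and 23 fell, while without CT19 58 rose and 92 fell. Leaving out 1 library at a time, 31 of the 52 were called throughout, and without CT23 replicate 1 12 rose and 20 fell, the lowest count of higher genes. With 1 plate per time point, 0 genes were called without replicate 1, and 2 rose and 4 fell without replicate 2. Without replicate 1, 713 of the 13813 genes tested had an unadjusted p under 0.05 (limma), among them all 52. That number is near what this threshold passes when no gene changes. With both replicates, 961 genes were higher and 646 lower at that threshold. That all 52 were among the 713 is no separate support either, since the 52 were picked on both replicates together.

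Cuticle collagens, the structural proteins of the worm's outer coat, were the largest group to fall. Of 156 numbered *col* genes, 70 passed the filter on low values (0.25 TPM or more on average across the 48 libraries) and 13 of these fell (18.6%, against 0.203% of all genes), while 0 rose. At an unadjusted p under 0.05, 32 of the 70 were lower and 2 higher (4.68% and 6.96% of all genes). Their median log2 change was -0.18, against 0.0079 over all genes. By level, all 19 numbered collagens that averaged 100 TPM or more in the 16 libraries were lower late, with a median log2 change of -0.37, and 11 of them passed the test. Of all 1473 genes at that level, 35.6% were lower late and the median was 0.030. The 30 collagens between 1 and 100 TPM had a median of -0.12, with 2 called, and the 21 below 1 TPM a median of -0.048, with none of the 21 called. Low genes have wider errors here and the added 0.5 TPM shrinks their log2 changes, so the bands cannot be compared for size.

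*col-20* had the smallest p of all genes. It was 193 to 261 TPM (median 221) in late libraries and 308 to 430.1 TPM (median 380.4) in early libraries, so that each late library was below each early one, at a log2 change of -0.72 ± 0.071 (SE, adjusted p = 0.000139). *col-93* showed the largest fall among all called genes, at a log2 change of -1.07 ± 0.13 (SE, adjusted p = 0.000944), with 47.9 to 73.1 TPM (median 54.2) late and 81.1 to 163.6 TPM (median 117) early, again with no overlap. Within the early window the level already differed by time point, the plates of CT1 and CT3 lying at 128.9 to 163.6 TPM and those of CT5 and CT7 at 81.1 to 104.3 TPM. *col-94*, its neighbor on chromosome III in the WBcel235 annotation, was 11.5 to 19.4 TPM (median 16.03) late and 18.3 to 37.2 TPM (median 29.8) early, with an overlap in the lowest early library, CT7 replicate 1, and changed by -0.81 ± 0.14 on the log2 scale (SE, adjusted p = 0.0105). Adjacent collagen genes can be alike in sequence, so reads could have been split between this pair and their values are not independent of each other.

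**Figure D2:**
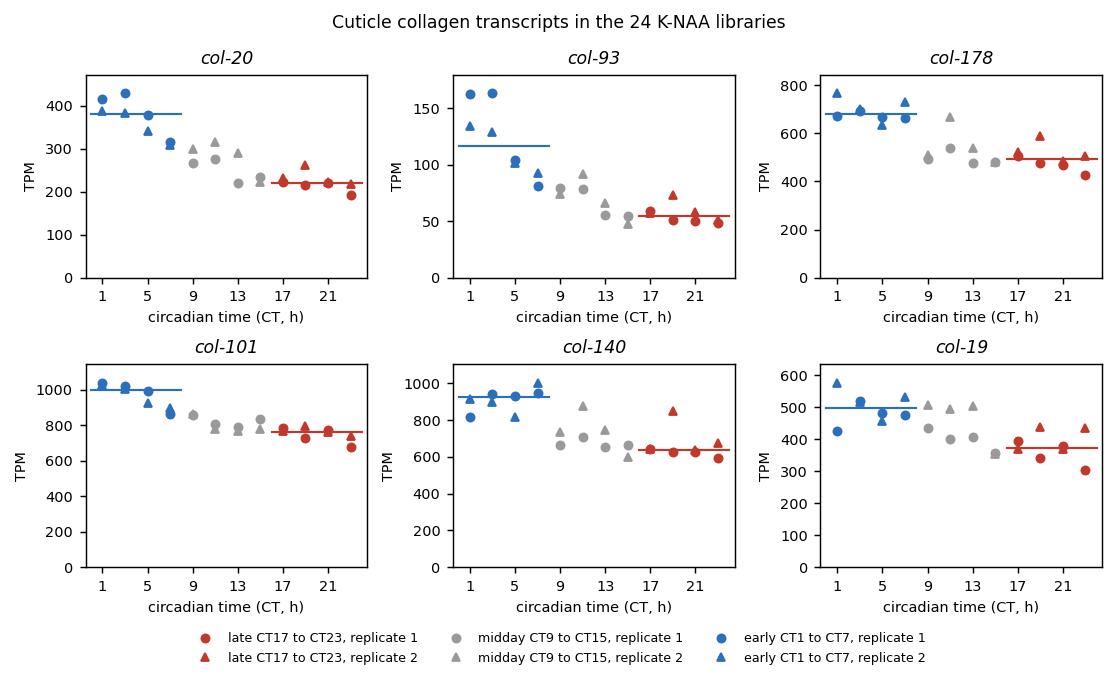
TPM of 6 collagen genes in the 24 K-NAA libraries against circadian time. Circles are replicate 1 and triangles replicate 2, red marks the late window, grey the midday libraries and blue the early window, and horizontal lines are the medians of 8 libraries. For *col-20*, *col-93*, *col-178* and *col-101* all red points lie below all blue points, and the grey points lie mostly between them. The single high red triangle of *col-140* is CT19, replicate 2.

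A further pair of collagens separated the windows fully. *col-178* was 427 to 589 TPM (median 495) late and 634 to 768 TPM (median 682) early, at a log2 change of -0.48 ± 0.054 (SE, adjusted p = 0.000354). *col-101*, among the most abundant, was 677 to 796 TPM (median 763) late and 862 to 1039 TPM (median 999) early, at a log2 change of -0.37 ± 0.044 (SE, adjusted p = 0.000734). In both, the 8 late libraries lay below the 8 early ones. *col-140* missed full separation by 1 library: it was 592 to 851 TPM (median 640.3) late and 817 to 1004 TPM (median 924) early, at a log2 change of -0.46 ± 0.063 (SE, adjusted p = 0.00209), and its highest late value came from CT19, replicate 2. The adult marker *col-19* was 302 to 438 TPM (median 374) late and 426 to 577 TPM (median 498) early, with a slight overlap, at a log2 change of -0.40 ± 0.073 (SE, adjusted p = 0.0177). The largest changes among the rest were those of *col-160*, at 114.5 to 230.1 TPM (median 153) late and 199 to 307 TPM (median 243) early, which changed by -0.68 ± 0.12 on the log2 scale (SE, adjusted p = 0.013), with CT19 replicate 2 as the highest late library. *col-124* was 199 to 285 TPM (median 238) late and 259 to 371 TPM (median 319) early, and changed by -0.45 ± 0.073 on the log2 scale (SE, adjusted p = 0.00979), with 1 late library, CT23 replicate 2, above the lowest early one. The log2 changes of *col-143*, *col-95*, *col-8* and *col-119* lay between -0.37 and -0.36, with adjusted p = 0.0103 to 0.0409 from limma. Their windows overlapped in each case. *col-8* missed the threshold without 6 of the 16 libraries taken singly (adjusted p = 0.0649 without CT3 replicate 2). *col-119* missed the threshold without 13 of the 16 libraries taken singly (adjusted p = 0.0984 without CT21 replicate 2).

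The body shape collagens, which set the furrows and form of the larval and adult cuticle, gave no call. Of the 10 of 20 *dpy*, *sqt*, *rol* and *bli* genes tested, 0 were called and 4 had an unadjusted p under 0.05, all higher (6.96% of all genes were), with a median log2 change of 0.32. *dpy-14* was 11.7 to 43.7 TPM (median 25.5) late and 10.7 to 26.9 TPM (median 15.4) early, at a log2 change of 0.57 ± 0.24 (SE, adjusted p = 0.347). *sqt-3* was at a log2 change of 0.33 ± 0.19 (SE, adjusted p = 0.558). The groups overlapped widely for both, and neither passed. Of the astacin proteases, of which several process cuticle proteins, *nas-3* rose, from the list of 21 tested, with 7.49 to 12.5 TPM (median 9.87) late and 5.74 to 8.05 TPM (median 6.84) early, at a log2 change of 0.48 ± 0.092 (SE, adjusted p = 0.024), and it missed the threshold without 5 of the 16 libraries taken singly (adjusted p = 0.0605 without CT21 replicate 2). The windows overlapped between CT23 replicate 2 and CT1 replicate 1. Just outside the threshold, *nas-37*, an enzyme of cuticle shedding in larvae, was lower at a log2 change of -0.60 ± 0.13 (SE, adjusted p = 0.0565).

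*grd-3*, a gene of the hedgehog-related groundhog family of secreted proteins, fell to 20.1 to 30.7 TPM (median 25.8) late, against 34.7 to 57.4 TPM (median 39.3) early, with no overlap, at a log2 change of -0.68 ± 0.10 (SE, adjusted p = 0.00292). It was the only call among 24 hedgehog-related genes tested. The next, *grd-5*, was 26.4 to 46.7 TPM (median 31.5) late and 35.7 to 53.3 TPM (median 44.8) early, and at a log2 change of -0.44 ± 0.11 (SE, adjusted p = 0.0802) did not pass.

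Among 18 body wall muscle markers tested, 15 were lower late, where 52.9% of all genes were higher, and 1 of the 15, *lev-11*, passed the test. *lev-11*, which encodes tropomyosin, the thin filament protein that gates contraction, was 152 to 196 TPM (median 163.2) late and 186 to 245 TPM (median 203) early. Its windows overlapped in a single late library, CT19 replicate 2, and it changed by -0.33 ± 0.057 on the log2 scale (SE, adjusted p = 0.0112). Of the 18, 12 were lower at an unadjusted p under 0.05 and none of the 18 higher (4.68% and 6.96% of all genes), and their median log2 change was -0.26. The troponin T gene *tnt-2* was 62.2 to 88.2 TPM (median 66.1) late and 72.4 to 92.3 TPM (median 84.5) early, at a log2 change of -0.29 ± 0.065 (SE, adjusted p = 0.0565). *dim-1*, an immunoglobulin-domain muscle protein gene, was at a log2 change of -0.28 ± 0.066 (SE, adjusted p = 0.0735). The other troponin T gene *mup-2* was at a log2 change of -0.28 ± 0.067 (SE, adjusted p = 0.0735). The summed muscle markers were 999.9 to 1307 TPM (median 1059.9) late and 1109 to 1553 TPM (median 1252) early. The pharynx muscle myosin *myo-2* was at a log2 change of -0.27 ± 0.087 (SE, adjusted p = 0.203), and 3 of 12 pharynx markers were lower at an unadjusted p under 0.05. The collagen sum, made in the hypodermis, was 9407 to 12959 TPM (median 10626) late and 12754 to 15045 TPM (median 13429.8) early. Of 7 hypodermis markers tested, 5 had a negative fitted change and 1, *col-19*, was called lower, while 2 were higher and 2 lower at an unadjusted p under 0.05. The sum of all 12 listed hypodermis markers was 409 to 568 TPM (median 494) late and 529 to 694 TPM (median 611) early, most of it from *col-19*. The part that the share of muscle or hypodermis RNA has in the falls of single genes was not tested.

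In the intestine, *act-5*, the actin of the microvilli that line the gut lumen, was 198 to 233 TPM (median 209) late and 228 to 274 TPM (median 260.2) early, overlapping slightly, and fell by 0.26 on the log2 scale (SE 0.045, adjusted p = 0.0132 from limma). The gut proton pump subunit gene *vha-6* was not called, at a log2 change of -0.25 ± 0.057 (SE, adjusted p = 0.0589), and nor was the intermediate filament gene *ifb-2*, at a log2 change of -0.26 ± 0.069 (SE, adjusted p = 0.111). Of the 16 intestine markers, 5 were higher and 11 lower, and their sum was 1995 to 2750.5 TPM late and 2124 to 2502 TPM early. Of the 6 vitellogenins, the yolk proteins and the most abundant products of the gut, *vit-2* was 5464 to 6311 TPM (median 5813) late and 6123 to 6959 TPM (median 6495) early, at a log2 change of -0.16 ± 0.037 (SE, adjusted p = 0.0645). *vit-6* was 5492 to 5902 TPM (median 5767) late and 5800 to 6739 TPM (median 6419) early, at a log2 change of -0.15 ± 0.037 (SE, adjusted p = 0.0779). Both missed the threshold, and their windows overlapped by few libraries. Of all 6 vitellogenins, 4 had a fitted change below 0 and 2 above. The log2 changes ran from -0.16 to 0.015, with a median of -0.080.

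A transporter gene and a heme gene fell. *mct-3*, of the monocarboxylate transporter family, was 16.99 to 20.5 TPM (median 18.9) late and 23.2 to 28.5 TPM (median 26.04) early, fully separated, at a log2 change of -0.47 ± 0.052 (SE, adjusted p = 0.000354). *hrg-1*, a transporter that brings heme into the cytosol of intestinal cells, was 25.7 to 30.6 TPM (median 26.9) late and 30.8 to 43.2 TPM (median 34.3) early. Its highest late value was just below its lowest early one, and it changed by -0.36 ± 0.074 on the log2 scale (SE, adjusted p = 0.0409), but it missed the threshold without 10 of the 16 libraries taken singly (adjusted p = 0.0956 without CT21 replicate 2). Worms cannot make heme and take it from food. The other heme genes missed the threshold. The uptake transporter *hrg-4* was 10.15 to 14.9 TPM (median 12.5) late and 12.2 to 22.8 TPM (median 15.4) early (log2 change -0.37 ± 0.12 SE, adjusted p = 0.199). *hrg-7*, a secreted protease-like protein of heme signaling between tissues, was 78.2 to 137 TPM (median 95.2) late and 95.8 to 245 TPM (median 166) early (log2 change -0.60 ± 0.19 SE, adjusted p = 0.193). The ferritin gene *ftn-1*, of iron storage, had a fitted change of the other sign, also not called, at 3.21 to 13.1 TPM (median 7.22) late and 2.04 to 5.48 TPM (median 3.35) early (log2 change 0.84 ± 0.28 SE, adjusted p = 0.214). Of the 8 iron and heme genes tested, 4 were lower and 1 higher at an unadjusted p under 0.05 (4.68% and 6.96% of all genes), with a median of -0.24.

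The remaining genes that fell have less certain roles. *sri-40*, of the serpentine chemoreceptor families and the 1 call of 51 such genes tested, was 7.67 to 14.5 TPM (median 12.5) late and 13.4 to 25.9 TPM (median 19.02) early, at a log2 change of -0.68 ± 0.13 (SE, adjusted p = 0.0177). Its windows overlapped in 1 early library, CT7 replicate 1. *endu-2*, an EndoU-type ribonuclease gene, was 17.2 to 29.6 TPM (median 23.99) late and 27.8 to 35.7 TPM (median 32.4) early, at a log2 change of -0.45 ± 0.087 (SE, adjusted p = 0.0243), and it missed the threshold without 6 of the 16 libraries taken singly (adjusted p = 0.0639 without CT3 replicate 2). *epic-2* was 46.7 to 68.7 TPM (median 51.6) late and 62.6 to 78.6 TPM (median 74.5) early, at a log2 change of -0.44 ± 0.072 (SE, adjusted p = 0.00979), with CT19 replicate 2 as its highest late library. *T16G1.6* was 2.02 to 3.32 TPM (median 2.42) late and 3.09 to 4.92 TPM (median 4.38) early, at a log2 change of -0.63 ± 0.10 (SE, adjusted p = 0.00979). *W02D9.7* and *W02D9.6* are neighbors on chromosome I. The first was 571 to 674 TPM (median 625) late and 667 to 759.9 TPM (median 711) early, at a log2 change of -0.21 ± 0.04 (SE, adjusted p = 0.0246). *W02D9.6* was 186 to 257 TPM (median 227) late and 253 to 319 TPM (median 292) early, at a log2 change of -0.39 ± 0.068 (SE, adjusted p = 0.0127). In both the windows overlapped slightly. *K09C4.5* had no overlap between windows, with a highest late value of 9.09 TPM and a lowest early value of 9.19 TPM, and changed by -0.47 ± 0.095 on the log2 scale (SE, adjusted p = 0.038). *W02D9.7* missed the threshold without 5 of the 16 libraries taken singly (adjusted p = 0.0652 without CT3 replicate 1). *K09C4.5* missed the threshold without 12 of the 16 libraries taken singly (adjusted p = 0.0843 without CT21 replicate 1). The last 3 genes fell with overlapping windows. *C29F7.2* was 9.06 to 14.8 TPM (median 11.5) late and 13.8 to 19.3 TPM (median 16.51) early, at a log2 change of -0.46 ± 0.093 (SE, adjusted p = 0.036), and it missed the threshold without 11 of the 16 libraries taken singly (adjusted p = 0.0847 without CT3 replicate 2). *hpo-34* was 44.3 to 51.98 TPM (median 48.03) late and 51.9 to 58.9 TPM (median 58.1) early, at a log2 change of -0.23 ± 0.044 (SE, adjusted p = 0.0218), and it missed the threshold without 4 of the 16 libraries taken singly (adjusted p = 0.0596 without CT21 replicate 1). *ltah-1.2*, named for leukotriene A4 hydrolase, was 16.9 to 20.6 TPM (median 18.2) late and 19.5 to 23.8 TPM (median 21.4) early, at a log2 change of -0.24 ± 0.05 (SE, adjusted p = 0.0467), and it missed the threshold without 13 of the 16 libraries taken singly (adjusted p = 0.1 without CT3 replicate 1).

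Among the genes that rose, *mtl-1* had the largest change, with *nspa-4*, whose early values were mostly listed at 0, left out of this order. It encodes a metallothionein, a small metal-binding protein of the intestine, induced by cadmium and heat and by the stress factor DAF-16. *mtl-1* was 106 to 249 TPM (median 174) late and 45.7 to 113 TPM (median 72.3) early, at a log2 change of 1.26 ± 0.21 (SE, adjusted p = 0.00979). The late library of CT19, replicate 2, was the only one of the 8 below the highest early libraries, and the 4 libraries of CT21 and CT23 were the highest, at 192.1 to 249.3 TPM. Of 9 genes on the metal list tested, *mtl-1* was the only call. *cdr-6*, named for cadmium response, was at a log2 change of 0.19 ± 0.058 (SE, adjusted p = 0.176).

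**Figure D3:**
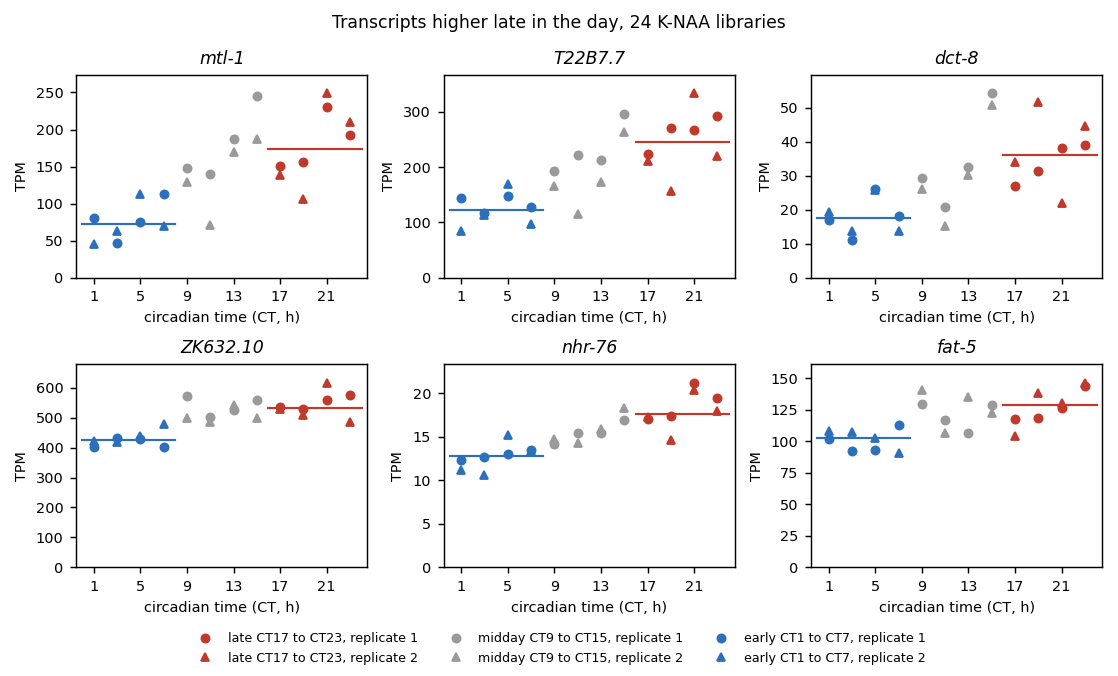
TPM of 6 genes that rose, in the 24 K-NAA libraries against circadian time, drawn as for the collagens: red late, grey midday and blue early libraries, circles replicate 1, triangles replicate 2, lines the medians of 8. For *ZK632.10* all red points lie above all blue points, and in *mtl-1*, *T22B7.7*, *dct-8*, *nhr-76* and *fat-5* the lowest red points reach into the blue range.

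Among the other genes that rose, *dct-8* and *dct-7* are named as genes under the control of DAF-16, the FOXO factor of insulin signaling. They stand on neither of the DAF-16 lists given below, and *dct* genes were not counted as a family. *dct-8* was 22.01 to 51.7 TPM (median 36.2) late and 11.2 to 26.1 TPM (median 17.5) early and changed by 0.98 ± 0.18 on the log2 scale (SE, adjusted p = 0.0218). *dct-7* was 13.6 to 27.002 TPM (median 20.9) late and 5.76 to 16.6 TPM (median 10.17) early and changed by 0.96 ± 0.20 on the log2 scale (SE, adjusted p = 0.0406). In both, the early libraries of CT5 were the highest of their window and overlapped with the late ones. *dct-8* missed the threshold without 3 of the 16 libraries taken singly (adjusted p = 0.0578 without CT3 replicate 2). *dct-7* missed the threshold without 11 of the 16 libraries taken singly (adjusted p = 0.0893 without CT23 replicate 1). *ugt-66*, a UDP-glucuronosyltransferase, an enzyme class that makes foreign compounds soluble, was 2.51 to 7.55 TPM (median 4.94) late and 1.18 to 3.54 TPM (median 2.08) early, at a log2 change of 1.08 ± 0.20 (SE, adjusted p = 0.0206), and it missed the threshold without 4 of the 16 libraries taken singly (adjusted p = 0.0531 without CT23 replicate 1). It was the only call among 56 such genes, of which 8 were lower and 2 higher at an unadjusted p under 0.05. *nhr-76*, a nuclear receptor, was 14.6 to 21.2 TPM (median 17.7) late and 10.6 to 15.2 TPM (median 12.85) early, at a log2 change of 0.50 ± 0.08 (SE, adjusted p = 0.00979). Its late library of CT19, replicate 2, and its early library of CT5, replicate 2, overlapped. It was the only call on the list of nuclear hormone receptors. At an unadjusted p under 0.05, 7 of the receptors tested were higher (3.93%) and 8 lower (4.49%). Both shares were below those of all genes (6.96% and 4.68%). On the list of insulin signaling and DAF-16 targets, 22 genes were tested and *mtl-1* and *fat-5* were called. *dod-3* came closest of the rest, at 95.8 to 199 TPM (median 148) late and 42.4 to 115 TPM (median 77.2) early (log2 change 0.86 ± 0.18 SE, adjusted p = 0.0512). Of the 22, 13 were above 0 and 9 below, where 52.9% of all genes were above 0. At an unadjusted p under 0.05, 4 of the 22 were higher and 1 lower. Of 9 tested genes named as downstream of DAF-16, 4 were above 0 and 5 below, and none of the 9 was called.

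Further genes of uncertain role rose. *T22B7.7* was 157 to 334 TPM (median 245) late and 84.4 to 169 TPM (median 122.3) early, at a log2 change of 0.98 ± 0.15 (SE, adjusted p = 0.00746). Of the late libraries only CT19, replicate 2, lay within the early range. *F15E6.3* was 349 to 412 TPM (median 403) late and 204 to 356 TPM (median 255) early, at a log2 change of 0.56 ± 0.089 (SE, adjusted p = 0.00979). The early library CT5 replicate 2 of *F15E6.3* reached into its late range. *ZK632.10* was 487 to 617 TPM (median 533) late and 401 to 479 TPM (median 426) early, with no overlap, at a log2 change of 0.34 ± 0.046 (SE, adjusted p = 0.00209), and was the only gene that rose to keep its call in all 24 omissions. *T26H5.9* was fully separated too, with 125 to 216 TPM (median 137) late and 68.2 to 118.9 TPM (median 97.8) early (log2 change 0.64 ± 0.12 SE, adjusted p = 0.0194), but it missed the threshold without 2 of the 16 libraries taken singly (adjusted p = 0.052 without CT21 replicate 2). The scarcer *W07A12.8* was 2.48 to 6.06 TPM (median 4.58) late and 1.34 to 2.69 TPM (median 2.098) early and changed by 0.93 ± 0.16 on the log2 scale (SE, adjusted p = 0.0105). *F56D2.3* was 0.909 to 2.103 TPM (median 1.14) late and 0.338 to 0.920 TPM (median 0.502) early and changed by 0.75 ± 0.13 on the log2 scale (SE, adjusted p = 0.0136). Each overlapped by 1 or 2 libraries at the edges. *F48D6.4* was 107 to 152 TPM (median 117) late and 73.6 to 111 TPM (median 92.0) early, at a log2 change of 0.39 ± 0.081 (SE, adjusted p = 0.0459), and it missed the threshold without 12 of the 16 libraries taken singly (adjusted p = 0.0912 without CT23 replicate 1). *K08F4.3* was 168 to 214 TPM (median 192) late and 156 to 170.3 TPM (median 165) early, at a log2 change of 0.22 ± 0.04 (SE, adjusted p = 0.0177), and it missed the threshold without 1 of the 16 libraries taken singly (adjusted p = 0.0509 without CT23 replicate 1). *Y47D9A.1* was 89.3 to 104.4 TPM (median 99.3) late and 84.02 to 91.1 TPM (median 88.5) early, at a log2 change of 0.16 ± 0.033 (SE, adjusted p = 0.0485), and it missed the threshold without 14 of the 16 libraries taken singly (adjusted p = 0.103 without CT3 replicate 1).

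Among the other genes that rose were *skr-2*, *skr-12* and *ubc-18*, picked out here for their known roles and not from a list. *skr-2* and *skr-12* encode Skp1-related adaptors of SCF ubiquitin ligases, the class of ligase that TIR1 itself joins, and *ubc-18* encodes a ubiquitin-conjugating enzyme. *skr-2* was 304 to 335 TPM (median 323) late and 275 to 296 TPM (median 284) early, without overlap, at a log2 change of 0.16 ± 0.028 (SE, adjusted p = 0.0134). *ubc-18* was 319 to 353 TPM (median 331) late and 296 to 317 TPM (median 301) early, also without overlap, at a log2 change of 0.13 ± 0.027 (SE, adjusted p = 0.038), and it missed the threshold without 10 of the 16 libraries taken singly (adjusted p = 0.0816 without CT3 replicate 2). *skr-12* was 21.8 to 28.9 TPM (median 25.1) late and 16.99 to 22.9 TPM (median 18.6) early, at a log2 change of 0.42 ± 0.068 (SE, adjusted p = 0.00979), with an overlap between CT17 replicate 2 and CT1 replicate 1. The 33 proteasome subunits gave 0 calls and 0 at an unadjusted p under 0.05, although 32 of the 33 were above 0, against 52.9% of all genes. Their median log2 change was 0.035, near the 0.030 of all 1473 genes that averaged 100 TPM or more, of which 35.6% were lower late.

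Of the lipid genes, *fat-5* and *hacd-1* rose. *fat-5*, a desaturase that turns palmitic into palmitoleic acid, was 104.001 to 147 TPM (median 129) late and 90.6 to 113 TPM (median 103) early, at a log2 change of 0.34 ± 0.068 (SE, adjusted p = 0.038), and it missed the threshold without 10 of the 16 libraries taken singly (adjusted p = 0.0866 without CT23 replicate 1). It was the 1 call of 15 desaturases and elongases, of which 7 were higher at an unadjusted p under 0.05 and 14 positive (6.96% and 52.9% of all genes). The stearoyl desaturase *fat-6* was 319.5 to 389.8 TPM (median 357) late and 244 to 351 TPM (median 315) early (log2 change 0.23 ± 0.071 SE, adjusted p = 0.169). The elongase *elo-1* was at a log2 change of 0.11 ± 0.034 (SE, adjusted p = 0.199) and the desaturase *fat-3* at a log2 change of 0.23 ± 0.076 (SE, adjusted p = 0.217), and none of these 3 passed. *hacd-1*, a hydroxyacyl-CoA dehydrogenase named for fat breakdown, rose to 61.2 to 90.4 TPM (median 78.4) late, against 47.5 to 62.6 TPM (median 54.4) early, at a log2 change of 0.46 ± 0.075 (SE, adjusted p = 0.00979), with CT17 replicate 1 just below the highest early library. The other 18 beta-oxidation genes tested had no call. Of the lysosomal lipases, all 6 tested were positive and none of the 6 was called. *lipl-5* was 111 to 183 TPM (median 148) late and 74.2 to 134 TPM (median 118) early (log2 change 0.41 ± 0.13 SE, adjusted p = 0.183).

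The lists of lysozymes, saposin-like proteins and C-type lectins, which include digestive and antimicrobial proteins, gave no call. All 11 lysozymes tested were above 0, against 52.9% of all genes, 4 with an unadjusted p under 0.05, and the median log2 change was 0.18. *lys-7*, a defense lysozyme, was 89.7 to 195 TPM (median 123) late and 46.998 to 101.3 TPM (median 92.2) early (log2 change 0.66 ± 0.17 SE, adjusted p = 0.0929). The invertebrate lysozyme gene *ilys-5* was 252 to 723 TPM (median 566) late and 231 to 427 TPM (median 335) early (log2 change 0.60 ± 0.20 SE, adjusted p = 0.225). Of 24 saposin-like genes, which encode membrane-active peptides, 7 were higher and none of the 24 lower at an unadjusted p under 0.05 (6.96% and 4.68% of all genes). The nearest to a call was *spp-1*, at 73.7 to 135 TPM (median 91.1) late and 51.3 to 82.7 TPM (median 68.7) early (log2 change 0.51 ± 0.11 SE, adjusted p = 0.0565), followed by the abundant *spp-5* (log2 change 0.30 ± 0.075 SE, adjusted p = 0.089) and *spp-14* (log2 change 0.35 ± 0.11 SE, adjusted p = 0.172). Among 107 C-type lectins, 13 were higher and 5 lower at that level. The summed level of all 236 C-type lectin genes, the untested ones included, was 5205 to 5694 TPM late and 4817 to 5168 TPM early, with no overlap. Sums were made for 48 families and 39 lists, and this was the only sum without overlap, so it is the extreme of many. The sum itself was not tested, and none of the 107 was called. The abundant *clec-87*, part of that sum, had overlapping windows, at 1772 to 2282 TPM (median 2099) late and 1757 to 1895 TPM (median 1808) early (log2 change 0.19 ± 0.046 SE, adjusted p = 0.0731).

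*nuc-1*, the acid DNase that digests DNA of dead cells and of ingested bacteria, was 43.1 to 57.6 TPM (median 52.2) late and 38.4 to 46.4 TPM (median 43.7) early, at a log2 change of 0.28 ± 0.059 (SE, adjusted p = 0.0499), close to the threshold, and it missed the threshold without 14 of the 16 libraries taken singly (adjusted p = 0.104 without CT21 replicate 2). *ttr-45*, of the transthyretin-related family, was 86.7 to 124 TPM (median 104.5) late and 75.7 to 88.4 TPM (median 82.3) early, at a log2 change of 0.35 ± 0.062 (SE, adjusted p = 0.0142), and was the only call among 49 such genes. In each, 1 late library, from CT19, reached into the early range.

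Of the germ line genes named here, *mesp-1* rose. *mesp-1*, a gene of the meiotic spindle, was 693 to 790.2 TPM (median 726) late and 601 to 664 TPM (median 643) early, without overlap, at a log2 change of 0.20 ± 0.034 (SE, adjusted p = 0.0106). Of 28 oocyte and eggshell genes, 0 were called, 25 were positive and 12 were higher at an unadjusted p under 0.05, against the 6.96% of all genes. The median log2 change was 0.077. *egg-3*, needed for the egg coat after fertilization, was 141 to 161 TPM (median 152) late and 135 to 144 TPM (median 139.9) early (log2 change 0.12 ± 0.03 SE, adjusted p = 0.0844). The oocyte maturation factor *oma-2* was at a log2 change of 0.11 ± 0.033 (SE, adjusted p = 0.153) and the eggshell proteoglycan *cpg-3* at a log2 change of 0.18 ± 0.056 (SE, adjusted p = 0.178). The 22 germ line genes of other roles had a median of 0.001 and 0 calls.

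Sperm genes gave no call. The 31 major sperm protein genes, the cytoskeletal and signal proteins of nematode sperm, summed to 6.22 to 316 TPM (median 88.7) late and 4.25 to 199 TPM (median 48.9) early. The early sums varied by time point. They were 5.75 and 7.87 TPM at CT1 and 10.5 and 4.25 TPM at CT5, but 199 and 118 TPM at CT3 and 87.3 and 112 TPM at CT7. Of the 28 tested, 27 were above 0 (52.9% of all genes were) with a median log2 change of 0.86, yet 0 were called and 3 had an unadjusted p under 0.05. *msp-31* was 2.95 to 14.6 TPM (median 6.91) late and 0.984 to 8.48 TPM (median 4.08) early (log2 change 0.78 ± 0.35 SE, adjusted p = 0.399). These genes are near-identical copies that share reads, so the 27 are not separate observations. The same holds for *nspa-4*, a nematode-specific peptide gene with several close copies. It was listed at 0 in 6 of the 8 early libraries and reached 44.7 TPM in another, against 20.7 to 75.6 TPM in the 8 late libraries (adjusted p = 0.0409 from limma), and it missed the threshold without 13 of the 16 libraries taken singly (adjusted p = 0.0912 without CT23 replicate 1). A TPM of 0 among such copies can be a failed estimate, so no fold is given, and the 7 *nspa* genes together overlapped, at 186.4 to 509.5 TPM late and 103.4 to 319.0 TPM early.

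**Figure D4:**
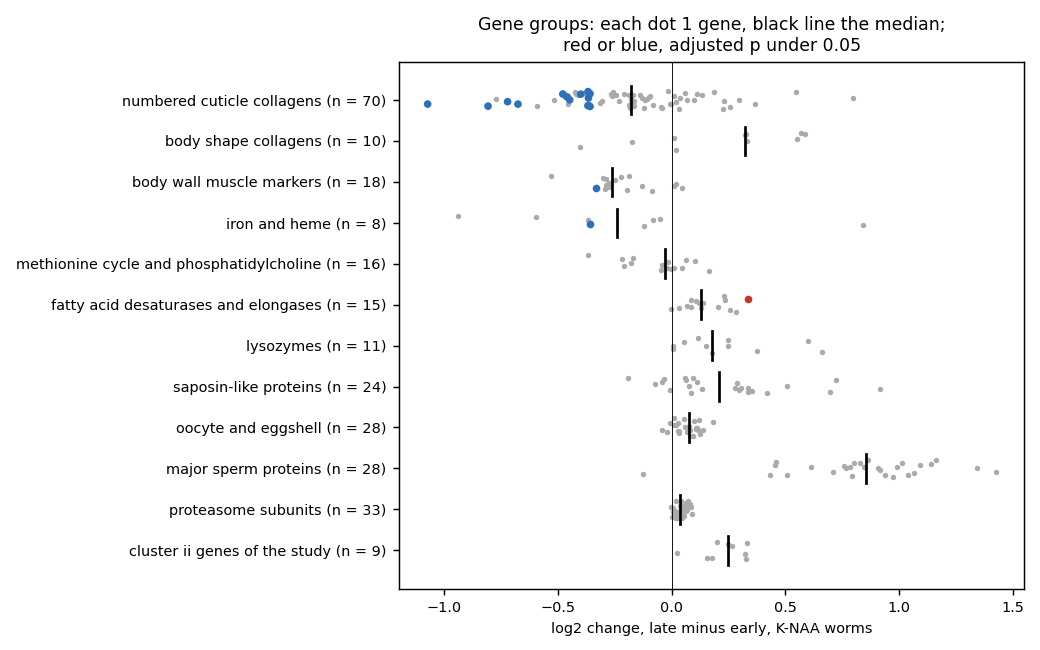
Log2 change between late and early K-NAA libraries for each gene of 12 groups, 1 dot per gene with vertical scatter for legibility, and the group's median as a black line. Blue and red dots are genes at an adjusted p under 0.05 (13 numbered collagens, *lev-11* and *hrg-1* lower, *fat-5* higher). The collagen, muscle and heme medians lie below 0 at -0.18, -0.26 and -0.24, and the major sperm proteins are shifted to 0.86 with no colored dot.

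Among enzymes of one-carbon metabolism, 5 of 16 genes were lower and none of the 16 higher at an unadjusted p under 0.05 (4.68% and 6.96% of all genes), with 0 called. *sams-1*, which makes the methyl donor S-adenosylmethionine, was 36.5 to 60.9 TPM (median 50.4) late and 53.9 to 75.3 TPM (median 66.3) early, overlapping in part, at a log2 change of -0.37 ± 0.094 (SE, adjusted p = 0.089). *mthf-1*, which supplies methyl groups from folate, was 55.8 to 68.6 TPM (median 64.9) late and 68.2 to 76.8 TPM (median 72.3) early (log2 change -0.17 ± 0.044 SE, adjusted p = 0.0929). *pmt-2*, of phosphatidylcholine synthesis, was at a log2 change of -0.21 ± 0.062 (SE, adjusted p = 0.161), and the methionine synthase *metr-1* at a log2 change of -0.18 ± 0.064 (SE, adjusted p = 0.263).

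Among detoxification genes, *ugt-66* was the only call on the lists of enzymes examined. Of 41 glutathione S-transferases, 7 were lower and 2 higher at an unadjusted p under 0.05. *gst-28* was 3.90 to 7.28 TPM (median 6.06) late and 6.19 to 9.87 TPM (median 8.02) early (log2 change -0.46 ± 0.13 SE, adjusted p = 0.115). The more abundant *gst-10* was 135 to 173 TPM (median 151) late and 104.1 to 148 TPM (median 129) early (log2 change 0.22 ± 0.068 SE, adjusted p = 0.178). Of the glucuronosyltransferases, *ugt-41* was at a log2 change of 0.49 ± 0.13 (SE, adjusted p = 0.102) and *ugt-39* at a log2 change of -0.33 ± 0.091 (SE, adjusted p = 0.119). The cytochrome P450 genes *cyp-35A3* and *cyp-35A5*, of a subfamily induced by foreign compounds, did not pass. *cyp-35A3* was 20.6 to 39.6 TPM (median 26.4) late and 34.3 to 56.1 TPM (median 42.2) early (log2 change -0.57 ± 0.15 SE, adjusted p = 0.102), and *cyp-35A5* was at a log2 change of -0.63 ± 0.17 (SE, adjusted p = 0.111). The catalases *ctl-1* and *ctl-2*, which break down hydrogen peroxide, were not called, *ctl-1* at a log2 change of 0.33 ± 0.10 (SE, adjusted p = 0.151) and *ctl-2* at a log2 change of 0.38 ± 0.12 (SE, adjusted p = 0.176). Of 21 genes of the endoplasmic reticulum stress response, 19 were positive by small amounts (median 0.055), 1 of them, the disulfide isomerase gene *pdi-3*, at an unadjusted p under 0.05 (log2 change 0.11 ± 0.042 SE, adjusted p = 0.302).

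The homologs of mammalian and fly clock genes showed no call. Of the 9, 8 passed the filter. *lin-42*, the Period homolog, was 0.825 to 3.46 TPM (median 1.73) late and 1.27 to 2.14 TPM (median 1.87) early, at a log2 change of 0.032 ± 0.17 (SE, adjusted p = 0.969). *kin-20*, the homolog of the kinase that phosphorylates Period, was 10.5 to 13.3 TPM (median 11.6) late and 11.005 to 12.2 TPM (median 11.8) early, at a log2 change of -0.00067 ± 0.054 (SE, adjusted p = 1). The Timeless homolog *tim-1* was at a log2 change of -0.033 ± 0.07 (SE, adjusted p = 0.911) and *aha-1*, of the bHLH-PAS family, at a log2 change of 0.039 ± 0.058 (SE, adjusted p = 0.862). The bZIP gene *atf-2* was at a log2 change of 0.12 ± 0.14 (SE, adjusted p = 0.824), the nuclear receptor *nhr-85* at a log2 change of 0.066 ± 0.12 (SE, adjusted p = 0.891) and *nhr-23* itself at a log2 change of -0.017 ± 0.045 (SE, adjusted p = 0.933). *ces-2*, a bZIP factor of the PAR class, had the smallest p of these, with 1.45 to 3.78 TPM (median 2.53) late and 0.735 to 2.07 TPM (median 1.56) early (log2 change 0.56 ± 0.18 SE, adjusted p = 0.186). The windows of all 8 overlapped. A p above the threshold does not show that they were unchanged, and the errors of *lin-42* and *ces-2*, both scarce, were the widest.

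The cluster ii genes, which include several molting and cuticle genes, gave no call. The study grouped them by a shared circadian pattern in an earlier adult data set. It also reported NHR-23 binding peaks near most of them. Of these 9, the fitted change of all 9 was above 0 (52.9% of all genes were), 0 were called and 1 had an unadjusted p under 0.05, and the median log2 change was 0.25. The collagen gene *dpy-2* was 0.882 to 1.78 TPM (median 1.47) late and 0.577 to 1.68 TPM (median 1.09) early (log2 change 0.33 ± 0.15 SE, adjusted p = 0.409). The collagen gene *dpy-17* was 11.5 to 31.1 TPM (median 20.2) late and 11.04 to 22.9 TPM (median 15.3) early (log2 change 0.32 ± 0.17 SE, adjusted p = 0.498). The molting gene *mlt-8* was 1.91 to 5.04 TPM (median 3.66) late and 2.11 to 4.12 TPM (median 2.70) early (log2 change 0.25 ± 0.15 SE, adjusted p = 0.578). *noah-1*, of the apical extracellular matrix, was at a log2 change of 0.18 ± 0.12 (SE, adjusted p = 0.621) and *noah-2*, its relative, at a log2 change of 0.20 ± 0.16 (SE, adjusted p = 0.7). *mlt-11*, a protease inhibitor gene of molting, was at a log2 change of 0.15 ± 0.11 (SE, adjusted p = 0.657). The zinc finger gene *egl-46* was at a log2 change of 0.27 ± 0.13 (SE, adjusted p = 0.445) and *T14B1.1* at a log2 change of 0.021 ± 0.087 (SE, adjusted p = 0.961), whose sign turned in 6 of the omissions of a library, a time point or a replicate. Windows overlapped for all 9, of which *mlt-10* has no values printed here. Of the 4 genes plotted by the study for a rhythm in mock worms, *clec-265* was 31.6 to 45.03 TPM (median 38.8) late and 42.4 to 54.8 TPM (median 48.9) early (log2 change -0.35 ± 0.091 SE, adjusted p = 0.102). *H11L12.1* was at a log2 change of -0.40 ± 0.19 (SE, adjusted p = 0.421), *Y47G7B.2* at a log2 change of 0.19 ± 0.15 (SE, adjusted p = 0.69) and *pygl-1*, glycogen phosphorylase, at a log2 change of 0.088 ± 0.09 (SE, adjusted p = 0.772). None of the 4 passed.

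The 8 K-NAA libraries of the midday (CT9 to CT15) entered no test of late against early. Their mean lay between the early and late means for 22 of the 24 genes that rose and 27 of the 28 that fell, and beyond the late mean for the other 3 (*T26H5.9*, *ttr-45* and *W02D9.7*). Among all genes tested, it lay between for 39.2%. Because a gene is called for a gap between early and late, a mean in between is likely for any called gene. For the 28 genes that fell, a median of 71.5% of the change was reached at midday, and for the 24 that rose 79.1%, against 69.6% over all genes tested, so these shares lie near the background. *col-178* had reached 85.02% and *mtl-1* 85.03%. *act-5* had reached 33.2%, *K09C4.5* 27.8% and *nas-3* 7.08%, so most of the difference of these 3 lay between midday and late libraries.

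The same comparison in mock worms, fitted on other libraries, called more genes: 340 were higher (2.46%) and 204 lower (1.48%). The difference between the counts is no test. Of the 28 genes that fell in K-NAA worms, 19 were also called lower in mock worms, which is 67.9% of the K-NAA list and 9.31% of the mock list, and 27 had the same sign. Of the 24 that rose, 9 were also called higher in mock worms, 37.5% of the K-NAA list and 2.65% of the mock list, and 23 had the same sign. All 13 collagens called in K-NAA worms were called lower in mock worms too, with a median log2 change of -0.45 in K-NAA and -0.57 in mock. *col-20* fell to 193 to 261 TPM (median 221) in late K-NAA worms, against 308 to 430.1 TPM (median 380.4) in early K-NAA worms. In mock worms it fell to 143 to 259 TPM (median 170.0) late, against 286 to 473 TPM (median 339) early.

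Tested directly, the late minus early change differed between K-NAA and mock worms for 5 genes (0.0362% of those tested), against 7.53% at an unadjusted p under 0.05. None of the 52 genes called in K-NAA worms was among the 5 (lowest adjusted p of the difference 0.181 from limma), and all 5 were called in mock worms and not in K-NAA worms. *M02H5.8* was 73.3 to 136 TPM (median 94.4) late and 69.5 to 96.4 TPM (median 81.2) early in K-NAA worms, and 94.2 to 176 TPM (median 139) late and 181 to 266 TPM (median 197) early in mock worms. Its windows overlapped in K-NAA worms and were fully apart in mock worms, and the change in K-NAA minus that in mock was 0.85 ± 0.15 on the log2 scale (SE, adjusted p = 0.0283). *M163.1* was 59.9 to 74.2 TPM (median 67.4) late and 52.5 to 71.0 TPM (median 58.1) early in K-NAA worms, and 35.2 to 46.8 TPM (median 44.6) late and 49.97 to 57.8 TPM (median 53.2) early in mock worms, a difference of 0.47 ± 0.087 on the log2 scale (SE, adjusted p = 0.0379).

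Heat shock genes were 2 of the 5. *hsp-16.11*, a small heat shock protein gene with a near-identical copy that may share its reads, was 13.7 to 21.8 TPM (median 17.8) late and 8.09 to 20.8 TPM (median 18.3) early in K-NAA worms, and 43.9 to 122.3 TPM (median 92.8) late and 148 to 315 TPM (median 194) early in mock worms. All 16 K-NAA values lay below all 16 mock values, and the difference in change was 1.49 ± 0.29 on the log2 scale (SE, adjusted p = 0.0429). *hsp-70*, an inducible chaperone gene, was near 0 in K-NAA worms, at 0.193 to 0.476 TPM (median 0.302) late and 0.0377 to 0.274 TPM (median 0.156) early, and 0.681 to 2.13 TPM (median 1.22) late and 1.63 to 3.35 TPM (median 2.21) early in mock worms, with a difference of 1.003 ± 0.19 on the log2 scale (SE, adjusted p = 0.0379). *hsp-70* averaged 0.224 TPM in the 16 K-NAA libraries, under the 0.25 TPM filter, and was tested only because the mock libraries raised its mean, so its call is no support for a difference. At values this close to 0 the pseudocount of 0.5 TPM also compresses the K-NAA change. *hsp-16.48* had a difference of 1.22 ± 0.28 on the log2 scale (SE, adjusted p = 0.169) and was not called. *tyms-1* encodes thymidylate synthase, the enzyme that a product of FUdR inhibits. It was 98.0 to 110.3 TPM (median 104.2) late and 98.0 to 118 TPM (median 103.6) early in K-NAA worms, and 116 to 146 TPM (median 131) late and 103 to 114.2 TPM (median 105) early in mock worms, with the medians of both K-NAA windows and of the early mock libraries near each other and the late mock libraries higher, at a difference of -0.31 ± 0.06 on the log2 scale (SE, adjusted p = 0.0379). Of these differences, 0 genes were called without CT1, CT3, CT5, CT7, CT21 or CT23, and 11 without CT17.

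Among the genes called in K-NAA worms, the difference from mock had its smallest p in *W07A12.8* and *hrg-1*. *hrg-1* was 30.4 to 44.9 TPM (median 33.1) late and 25.7 to 36.9 TPM (median 31.7) early in mock worms, with a log2 change of 0.15 there, and the difference was -0.51 ± 0.13 on the log2 scale (SE, adjusted p = 0.181). *W07A12.8* had a log2 change of 0.11 in mock worms and a difference of 0.83 ± 0.20 on the log2 scale (SE, adjusted p = 0.181). Neither passed. Of the 52, 13 had an unadjusted p under 0.05 for the difference (9 that rose and 4 that fell). Of the lists with at least 5 genes tested, those whose medians differed most were the heat shock response (K-NAA -0.013, mock -0.71), the major sperm proteins (K-NAA 0.86, mock -0.28) and the mitochondrially encoded genes (K-NAA 0.019, mock 0.32). The heat shock list held 2 of the 5 calls, 1 of them *hsp-70*, which was tested only through its mock level. No gene of the sperm or mitochondrial list was called for the difference. The medians themselves were not tested, and the sperm genes are near-identical copies.

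**Figure D5:**
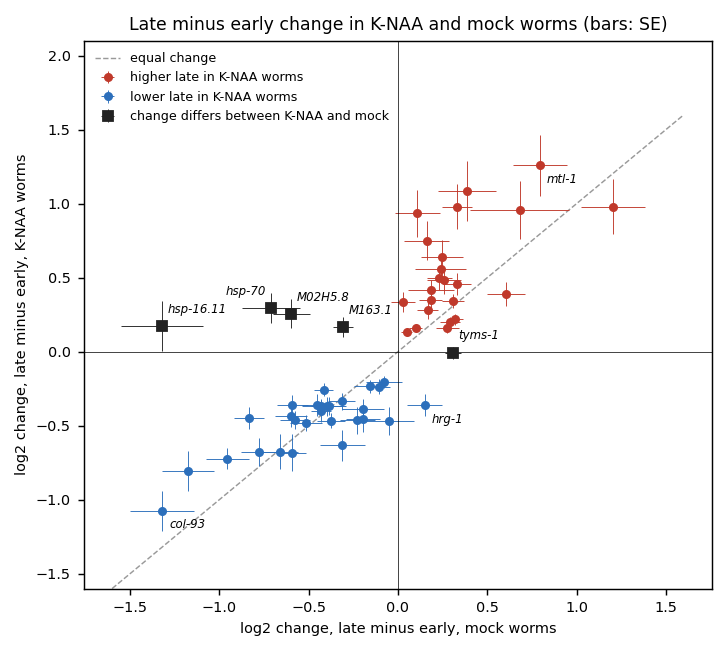
Log2 change between late and early libraries in K-NAA worms (vertical axis) against that in mock worms (horizontal axis), with SE bars and the line of equal change. Red and blue dots are 51 of the 52 genes called in K-NAA worms (*nspa-4*, for which no fold is given, is left off), and black squares the 5 genes whose change differed. Most blue dots lie near the line, *hrg-1* apart from it, and the squares lie closer to 0 on the K-NAA axis than on the mock axis.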

How the data were processed

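The authors quantified paired-end, strand-specific poly(A) RNA-seq reads with Salmon on WormBase mRNA sequences and deposited TPM per gene, scaled to the same total in each library. Their notes also list the build ce10. The step from transcripts to genes was not given in the sources used here. The tables also hold 7 columns per treatment from the rhythm caller BioCycle, which were not used. TPM keeps no read counts, so depth and counting error are unknown.

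Groups came from the sample labels. log2(TPM + 0.5) was fitted with limma 3.58.1 in R 4.3.3 (trended prior spread) for the 13813 of 19885 genes that averaged 0.25 TPM or more across the 48 libraries, with separate fits for late minus early in K-NAA and in mock worms and an interaction fit for their difference. All p-values are two-sided and Benjamini-Hochberg adjusted p-values run over the genes tested. The pseudocount understates changes of low genes. The fit was tested on simulated data. The 2 samples of a time point are culture plates, so p-values measure the spread between plates and time points.

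Named genes were the 12 with the highest and the 12 with the lowest change and the 8 of smallest p per direction among those called that averaged 1 TPM or more and had 1 sign in both replicates, the 10 of smallest p for the difference, and up to 4 per list. *nhr-23*, the clock homologs, the cluster ii genes other than *mlt-10* and the 4 genes plotted by the study were named too. The other called genes were named so that all 52 are accounted for. The comparison and the lists were chosen with earlier results of these data known. Alternatives changed the pseudocount, filter, scaling, time and plate terms and prior, and left out libraries, time points or replicates.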

Additional observations from a re-analysis of the deposited data

Results flagged for a closer look

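Within groups of 8 libraries, the highest or lowest value was set apart from the rest when its gap to the nearest library was above Dixon's 95% critical share of the group's range. Of 232 groups over 116 named genes, 16 met this, a share not far above the 5% or so that chance gives. Of the 16, 8 were the same library, late CT19 replicate 2. Most of these 8 are collagen or muscle genes, whose sums were high together in that library, so they are not 8 separate observations. In that library, *col-140* was 851 TPM, *col-143* 723 TPM, *col-93* 73.1 TPM, *lev-11* 196 TPM, *tnt-2* 88.2 TPM, *dim-1* 74.5 TPM, *epic-2* 68.7 TPM and *H11L12.1* 48.6 TPM, each the highest of the 8 late libraries. The others were *F56D2.3* at 2.103 TPM in late CT19 replicate 1, *F48D6.4* at 152 TPM in late CT21 replicate 2, *T26H5.9* at 216 TPM and *mthf-1* at 55.8 TPM in late CT23 replicate 2, *noah-1* at 5.28 TPM in early CT1 replicate 1, *grd-3* at 57.4 TPM in early CT1 replicate 2, and *ZK632.10* at 479 TPM and *ctl-1* at 65.3 TPM in early CT7 replicate 2. Among these, *mthf-1* and *ctl-1* were the lowest of their group of 8 and the rest the highest.

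The late minus early change differed between K-NAA and mock worms for 5 genes (interaction test, limma). The log2 change in K-NAA minus that in mock was 1.49 for *hsp-16.11*, 1.003 for *hsp-70*, 0.85 for *M02H5.8*, 0.47 for *M163.1* and -0.31 for *tyms-1*. *hsp-70* averaged only 0.224 TPM in the 16 K-NAA libraries and passed the filter on low values through the mock libraries, so its value rests on mock worms.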

How the results depend on the processing

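In K-NAA worms, 24 genes rose and 28 fell. The numbers were 50 that rose at a mean of at least 1 TPM, 50 and 55 with median ratio rescaling, 40 and 57 after quantile normalization, 136 and 125 with a linear slope over the 12 time points, and 0 and 3 on time point means (1479 genes at an unadjusted p under 0.05, limma). With time points as a factor 47 fell, and with a prior spread without a trend 15 rose. With the replicate block, 47 rose and 43 fell, all 52 among them. The replicate numbers of the plates are not known to pair libraries (r of the replicate difference between windows 0.215 in K-NAA and 0.0671 in mock). Omissions gave 0 to 64 that rose and 0 to 92 that fell. In mock worms, 340 rose and 204 fell, with 66 and 43 on time point means, 769 and 473 with the slope, 215 that rose with the factor, and 0 to 410 and 0 to 262 in omissions. The difference between treatments, 5 genes, became 0 on time point means, 22 with the slope, 2 without the trend and 0 to 11 in omissions. The causes were not tested.

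Direction changed for genes near 0 that were not called. *kin-20* was at 0.0042 after quantile normalization. In omissions, *kin-20* lay between -0.034 and 0.045, *lin-42* between -0.23 and 0.29, *T14B1.1* between -0.061 and 0.10, *nhr-23* between -0.056 and 0.028, *nhr-85* between -0.056 and 0.19 and *tim-1* between -0.075 and 0.019 on the log2 scale.

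Depth is unknown from TPM, genes under about 1 TPM had the widest errors, and the 16 h between windows hold age, K-NAA exposure and time of day together.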
